A study of Rattus norvegicus with 47 samples.

Results

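The genes described here encode splicing factors and heterogeneous nuclear ribonucleoproteins (hnRNPs) of the rat medial prefrontal cortex. They were chosen by name: every probe set (a set of short probes on the array that reads 1 transcript) whose single gene symbol in the platform annotation starts with Srsf, Hnrnp, Snrp, Sf3a, Sf3b or Prpf. This gave 87 probe sets of 57 genes, out of 10899 genes on 20249 probe sets that are not controls. The probe set of the highest mean signal stood for each gene. Of the 57 genes, 54 passed the filter on dim probe sets (a mean log2 signal of 5.72 or more), with 75 of their probe sets. Sf3a1, Srsf3 and the pseudogene Srsf7-ps4 lay below it and were not tested.

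The animals were Wistar rats, and total RNA of the dissected cortex was measured on 1-colour Affymetrix arrays. Rats were either socially reared or reared in isolation, and the tissue was dissected at postnatal day 30, 40, 60 or 80 (P30, P40, P60 and P80). The socially reared groups held 6 samples at each age. The isolation-reared groups held 5 samples at P30, 5 at P40, 6 at P60 and 6 at P80. At P30, arrays 3 and 4 of the isolation-reared group lay closer together (0.116 log2 units, root mean square) than any other pair of arrays within a group (0.175 or more), and their mean was counted as 1 sample. Samples are named by the array numbers in the labels. The isolation-reared samples at P30 are thus 1, 2, 3 (the mean of arrays 3 and 4), 5 and 6, and their values are listed in this order. The labels give no sex, litter, batch or hybridisation date, and do not say that the samples are separate animals, so each p-value reflects the spread among samples as deposited, which may be technical. In a dissected tissue, fewer cells of a type and less RNA per cell cannot be told apart.

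Splicing removes introns from pre-mRNA in the nucleus. The small nuclear ribonucleoproteins (snRNPs), whose Sm and snRNA-specific proteins are the Snrp genes, the SF3a and SF3b complexes that anchor one of them at the branch point, and the Prpf factors form the catalytic machinery, the spliceosome. SR proteins (Srsf genes) mostly promote, and hnRNPs often repress, the use of individual exons, and in neurons the balance among such factors is known to set many alternative exons of synaptic and cytoskeletal genes.

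Several measures of the arrays moved with the groups. The log2 ratio of the 3' to the 5' control probe set of Gapdh, a measure of RNA integrity and labelling, averaged 2.03 ± 0.15 (SD, n = 6) in socially reared rats at P60 and 1.36 ± 0.039 (n = 6) in isolation-reared rats, with no overlap. At P80 it averaged 1.89 ± 0.091 (n = 6) and 1.57 ± 0.091 (n = 6). The groups were also apart at P30, where the means were 1.52 and 1.34, and at P40, where isolation-reared rats had the higher mean (1.87 against 1.61). The actin ratio was apart at P30 (2.9 to 4.4 in socially reared, 2.21 to 2.55 in isolation-reared rats) and at P60 (4.26 to 5.27 and 3.65 to 4.19). Markers of cortical excitatory neurons were present: 9 of the 10 listed genes on the array passed the filter. At P60 their summed linear signal ranged from 4820 to 5320 in socially reared and from 5500 to 5990 in isolation-reared rats, although 3 were called higher (Slc17a7 among them) and 3 lower, with a median of -0.04. The order of the sums was the opposite at P30 (6190 to 6510 in socially reared, 5530 to 5890 in isolation-reared rats). It was also the opposite at P40 (5810 to 6360 and 5050 to 5620). Of 8 oligodendrocyte markers 7 were called lower at P40, where their sum ranged from 7660 to 8620 in isolation-reared and from 9200 to 10200 in socially reared rats. Astrocyte sums at P30 were apart (12400 to 13300 in isolation-reared, 14000 to 14300 in socially reared rats), with 5 of 8 markers called lower and 0 higher. Microglia sums at P40 were apart as well (1300 to 1390 and 1490 to 1670), with 4 markers called lower and 1 higher. The sum of 6 interneuron markers at P80 ranged from 3500 to 3780 in isolation-reared and from 3100 to 3400 in socially reared rats. There 3 of them were called higher, but Pvalb was called lower (-0.38 ± 0.098). Interneuron sums at P30 had the opposite order (3020 to 3180 in isolation-reared, 3290 to 3490 in socially reared rats), with 3 called lower and 0 higher. Of 7 choroid plexus and ependyma markers only Ttr passed the filter. It was lower in isolation-reared rats at P30 (log2 difference -3.11 ± 0.11, SE) and higher at P40 (1.97 ± 0.11), while the summed signal of the list at P30 ranged from 978 to 1100 in socially reared and from 280 to 383 in isolation-reared rats. Of 3 blood markers only Hbb passed, with a log2 difference of 0.45 ± 0.045 at P60 and -0.47 ± 0.045 at P80. The part of these measures in the differences below was not tested, and fits with the Gapdh ratio are given beside some of them. At each age the ratio did not overlap between the rearings. These fits therefore extend a slope within groups over a gap that no sample of that age fills. Their differences are less precise, and a larger one is not a firmer one.

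All differences below are log2 signals of isolation-reared minus socially reared rats (± SE), from limma's moderated test fitted over 12149 probe sets and adjusted by the Benjamini-Hochberg method within each comparison. A member is called where its adjusted p is below 0.05. At P30, 10 of the 54 members were called (18.5%), 4 higher and 6 lower in isolation-reared rats, where 19.9% of all probe sets were called, 7.61% higher and 12.3% lower. At P40, 13 were called (24.1%), 4 higher and 9 lower, against 28.3% of all probe sets, 13.8% higher and 14.6% lower. These shares lay near or below those of the array as a whole and are not a result about the members. With the Gapdh ratio as a further term of the model, 7 of the 10 calls at P30 were kept (those of Hnrnpa3, Sf3b6 and Snrpf were lost) and 9 of the 13 at P40 (those of Hnrnpa1, Hnrnpa2b1, Hnrnph1 and Srsf6 were lost). New calls in that model were those of Hnrnpdl and Snrpb2 at P30 and of Hnrnpll and Srsf2 at P40.

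At P60, 33 of the 54 members were called (61.1%), 16 higher and 17 lower, against 53.1% of all probe sets, 23.7% higher and 29.3% lower. At P80 the count was also 33 (61.1%), 15 higher and 18 lower, against 47.7% of all probe sets, 23.5% higher and 24.2% lower. The median size of the members' differences, whatever their sign, was 0.238 at P60 and 0.207 at P80, beside 0.191 and 0.17 over all probe sets. Their median with sign was -0.032 at P60 and -0.013 at P80, close to the medians over all probe sets (-0.023 and -0.004). Over the 4 ages, 9 members were called at no age, 15 at 1, 17 at 2, 12 at 3 and 1 at all 4, while 79% of all probe sets were called at 1 or more. With the Gapdh ratio in the model, 19 members were called at P60, and the balance moved to 5 higher and 14 lower, where 13.7% of all probe sets were called higher and 17.2% lower. Of the 33 calls at P60, 16 were kept, and 3 were new: Hnrnpl (0.29), Hnrnpa2b1 (-0.37) and Srsf10 (-1.44). The 17 lost were those of Hnrnpa1, Hnrnpa3, Hnrnpab, Hnrnpc, Hnrnpf, Hnrnpul1, Prpf40b, Sf3b2, Sf3b3, Snrpa1, Snrpd1, Snrpd2, Snrpd3, Srsf2, Srsf4, Srsf6 and Srsf9. Lost calls did not all go with smaller differences: Hnrnpf went from 0.31 to 0.44 and Snrpa1 from -0.52 to -0.58. Hnrnpul1 (0.8 to 0.5) and Snrpd3 (0.24 to 0.08) did become smaller. At P80 the same model called 26 members, 11 higher and 15 lower, where 16.5% of all probe sets were called higher and 18.3% lower. It kept 23 of the 33 calls and lost the 10 of Hnrnpa1, Hnrnpdl, Hnrnph3, Prpf38b, Prpf40b, Sf3b3, Snrpb, Snrpn, Srsf2 and Srsf9. Its 3 new calls were Hnrnpa2b1 (-0.3), Srsf11 (-0.29) and Sf3b5 (0.31).

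**Figure D1:**
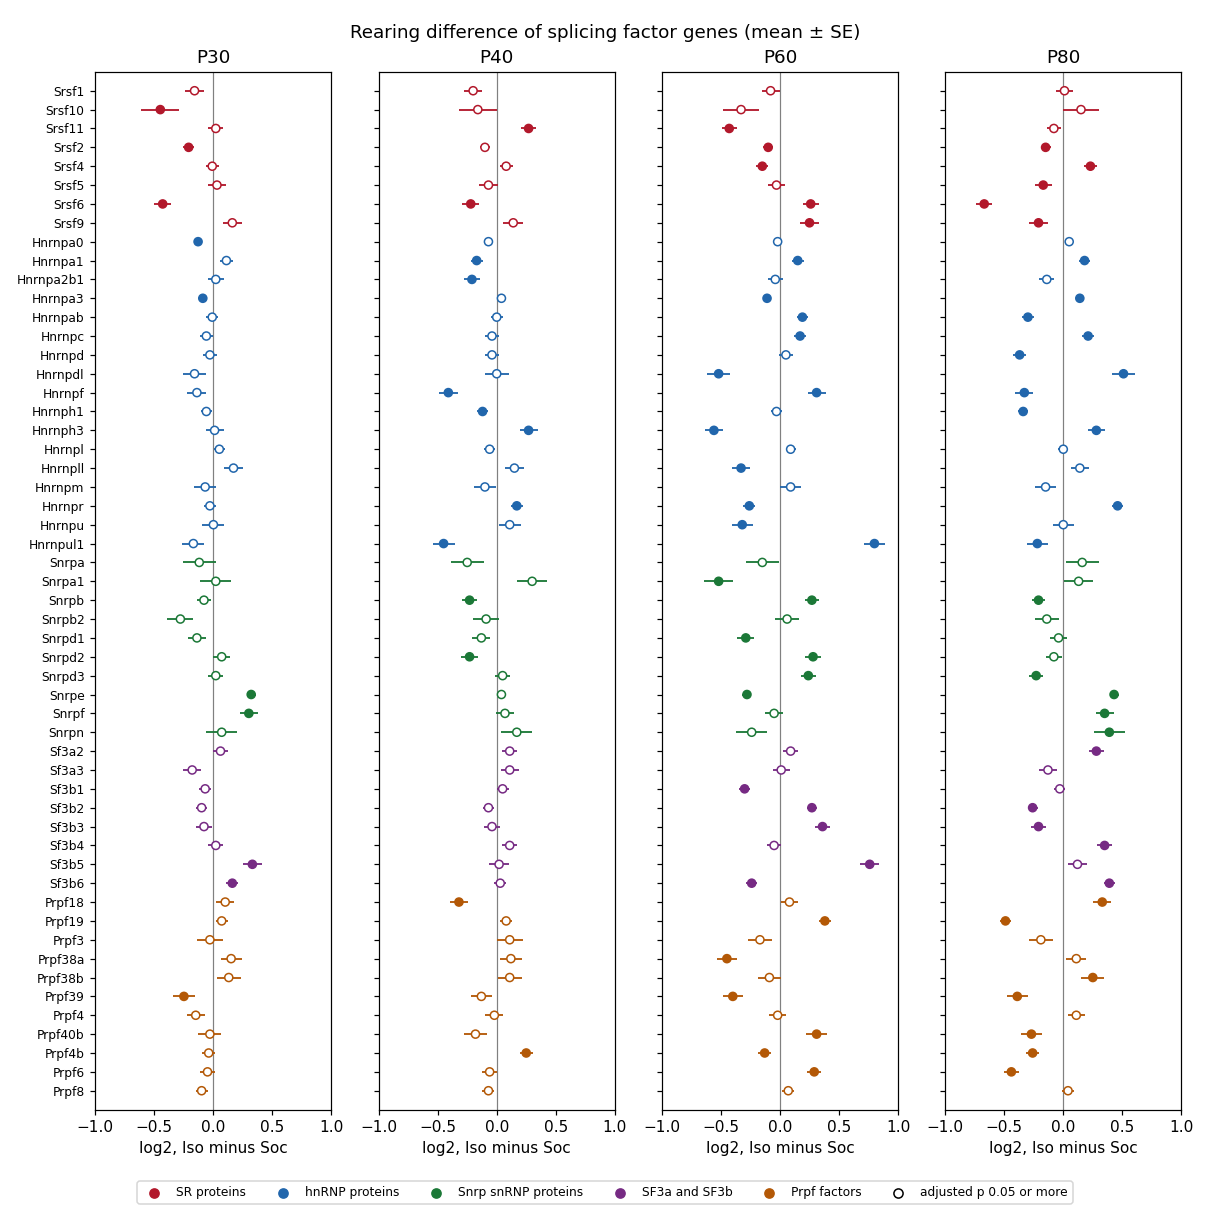
Log2 difference (isolation-reared minus socially reared, ± SE) of the 54 members at each age, in 4 panels with a common scale. Colours mark the 5 gene groups, filled points an adjusted p below 0.05; 10 points are filled at P30, 13 at P40, 33 at P60 and 33 at P80, on both sides of 0.

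Among the 8 SR protein genes, Srsf6, a regulator that binds exonic enhancers, stood out by its size and its turns. By its brightest probe set it was lower in isolation-reared rats at P30, P40 and P80 and higher at P60. Its other probe sets read 0.07 and 0.13 at P30 and 0.07 and 0.04 at P40. One of them was called in the opposite direction at P60, as given below. With the Gapdh ratio in the model, Srsf6 lost its calls at P40 (-0.22, adjusted p = 0.0788) and P60 (0.24, adjusted p = 0.302). The P40 call (-0.22 ± 0.073) was lost without isolation-reared sample 1 or 5, where differences over all samples left out ran from -0.27 to -0.19. At P30 its log2 signal in socially reared rats ranged from 7.66 over a median of 7.81 to 7.93, and the 5 isolation-reared samples read 7.42, 7.21, 7.32, 7.44 and 7.49. No isolation-reared sample reached the lowest socially reared one, and the difference was -0.43 ± 0.073 (adjusted p = 2.27e-05). At P80 socially reared samples ranged from 7.59 over 7.75 to 7.9, and isolation-reared samples from 6.92 over 7.09 to 7.16. The groups were again apart, with a difference of -0.67 ± 0.069 (1.59-fold lower, adjusted p = 4.96e-11), the largest of any member at that age. At P60 the order turned. Socially reared samples ranged from 7.01 over 7.17 to 7.41 and isolation-reared samples from 7.32 over 7.45 to 7.6, so the groups overlapped at a difference of 0.26 ± 0.069 (adjusted p = 0.00142).

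Srsf10, which represses splicing when dephosphorylated, had the largest difference of any member at P30 and the widest spread. Socially reared samples ranged from 7.03 over 7.38 to 7.57, and the 5 isolation-reared samples read 6.94, 6.52, 7.15, 6.76 and 7.07. The groups overlapped, at -0.45 ± 0.16 (adjusted p = 0.0365). The call was lost when any of socially reared samples 1, 3, 4 or 5 or isolation-reared samples 1, 2 or 5 was left out, with differences between -0.51 and -0.35. The difference was -0.8 with the Gapdh ratio in the model.

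Srsf11, known as a partner in the inclusion of neuronal microexons, was higher in isolation-reared rats at P40 (0.27 ± 0.065, adjusted p = 0.0016) and lower at P60 (-0.43 ± 0.062, adjusted p = 1.49e-07). At P60 socially reared samples ranged from 8.69 over 8.75 to 8.83 and isolation-reared samples from 8.17 over 8.34 to 8.42, with no overlap. These differences were 0.44 and -0.88 with the Gapdh ratio in the model. Srsf4 was lower at P60 (-0.15 ± 0.052) and higher at P80 (0.23 ± 0.052), and Srsf9 was the reverse, with 0.25 ± 0.079 at P60 and -0.21 ± 0.079 at P80. The P60 call of Srsf4 (-0.15, adjusted p = 0.412) and both calls of Srsf9 (0.43 and -0.12, adjusted p = 0.0787 and 0.426) were lost with the Gapdh ratio. Srsf2, which acts in exon definition, was lower at P30, P60 and P80 (-0.21, -0.1 and -0.15). Under that model Srsf2 read -0.16 at P30, still called, but 0.07 at P60 and -0.07 at P80, neither called. Srsf1 passed at no single age and Srsf5 only at P80 (-0.17 ± 0.074, adjusted p = 0.0486).

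Of the 17 hnRNP genes, 11 were called at P60 and 11 at P80, split 5 higher and 6 lower, then 6 higher and 5 lower, beside 53.1% and 47.7% of all probe sets. Hnrnpul1, an hnRNP U-like nuclear RNA-binding protein, had the largest difference of any member at P60. Socially reared samples ranged from 5.77 over 5.92 to 6.11, just above the filter value of 5.72. Isolation-reared samples ranged from 6.68 over 6.73 to 6.92. The groups lay apart by more than either spanned, and the difference was 0.80 ± 0.089 (1.74-fold higher, adjusted p = 2.60e-10). It was 0.5 with the Gapdh ratio in the model and was no longer called (adjusted p = 0.0659). At P40 the order was the opposite: socially reared samples ranged from 6.58 over 6.75 to 6.89 and the 5 isolation-reared samples read 6.26, 6.39, 6.31, 6.52 and 5.99. These groups did not overlap either (-0.45 ± 0.093, adjusted p = 2.59e-04). At P80 the groups overlapped, at -0.22 ± 0.089 (adjusted p = 0.0347), or -0.36 with the Gapdh ratio.

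Hnrnpf, which binds runs of guanines in RNA, had the same sequence of signs. At P40 socially reared samples ranged from 6.31 over 6.44 to 6.64, and the 5 isolation-reared samples read 5.92, 6.01, 6.03, 6.21 and 5.98, all below them (-0.41 ± 0.08, adjusted p = 8.94e-05). At P60 all isolation-reared samples (6.29 over 6.38 to 6.6) were above all socially reared samples (5.97 over 6.1 to 6.13), a difference of 0.31 ± 0.076. At P80 all were below (5.82 over 6.02 to 6.13 against 6.23 over 6.32 to 6.47), a difference of -0.33 ± 0.076. The P60 call of Hnrnpf was lost with the Gapdh ratio in the model (0.44, adjusted p = 0.065). Its relative Hnrnph3, of the same guanine-binding subfamily, went the other way at each of these ages: 0.27 ± 0.076 at P40, -0.56 ± 0.073 at P60 and 0.28 ± 0.073 at P80. At P60 its socially reared samples ranged from 7.93 over 8.19 to 8.23 and its isolation-reared samples from 7.15 over 7.66 to 7.74, with no overlap. Without isolation-reared sample 1, the lowest, the P60 difference was -0.48. The P80 call of Hnrnph3 was lost with the Gapdh ratio (0.15, adjusted p = 0.268). Hnrnph1, also of that subfamily, was called lower at P40 (-0.12 ± 0.045) and at P80 (-0.34 ± 0.043). Its P40 call was lost without any of socially reared samples 2, 3, 4 or 5 or isolation-reared samples 1, 4 or 5, with differences from -0.17 to -0.09.

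Hnrnpdl, a relative of Hnrnpd that binds AU-rich RNA, was lower at P60 and higher at P80. At P60 socially reared samples ranged from 9.26 over 9.72 to 9.78 and isolation-reared samples from 8.97 over 9.11 to 9.36. Only the lowest socially reared sample lay within the isolation-reared range, and the difference was -0.52 ± 0.097 (adjusted p = 1.56e-05). At P80 socially reared samples ranged from 8.62 over 9.06 to 9.31 and isolation-reared samples from 9.25 over 9.56 to 9.76, overlapping at the edge, with a difference of 0.51 ± 0.097 (adjusted p = 2.30e-05). The differences with the Gapdh ratio were -1.08 at P60 and 0.25 at P80, the latter not called (adjusted p = 0.127). A second, dimmer probe set of Hnrnpdl read -0.12 and -0.11, neither called. Hnrnpd itself, a factor that also acts in mRNA decay, was called only at P80 (-0.37 ± 0.057). Hnrnpab, of the same family, was higher at P60 (0.19 ± 0.048) and lower at P80 (-0.3 ± 0.048). Hnrnpll, known for its part in exon skipping in mouse T cells, and Hnrnpu, a nuclear scaffold protein, were lower at P60 (-0.33 ± 0.074 and -0.32 ± 0.089). The Hnrnpu difference was -0.21 without isolation-reared sample 1 and was still called. Hnrnpll and Hnrnpu read -0.8 and -0.77 with the Gapdh ratio. Hnrnpl and Hnrnpm passed at no age, though Hnrnpl was called at P60 with the Gapdh ratio (0.29, adjusted p = 0.0183).

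The 10 Snrp genes divided within the Sm ring, the set of proteins that wraps the snRNA. Snrpb and Snrpd3, which bind each other in that ring, were higher at P60 (0.27 ± 0.057 and 0.24 ± 0.061) and lower at P80 (-0.21 ± 0.057 and -0.23 ± 0.061). Snrpd2, of the same ring, was lower at P40 (-0.23 ± 0.07), higher at P60 (0.28 ± 0.067) and not called at P80 (-0.08). Snrpd1, its partner, was lower at P60 (-0.29 ± 0.072). Once the Gapdh ratio was in the model, the P60 call of Snrpd3 was lost (0.08). Those of Snrpd2 (0.39, adjusted p = 0.0661) and Snrpd1 (-0.31, adjusted p = 0.181) were also lost, though these differences were no smaller. The P80 call of Snrpb (-0.09) was lost too, and its P60 difference became 0.53. Snrpf, which sits beside Snrpe, was higher at P30 (0.3 ± 0.079, not called with the Gapdh ratio) and at P80 (0.35 ± 0.076) and read -0.05 at P60, not called. Snrpa1, a protein specific to the snRNP of the branch point, was lower at P60 (-0.52 ± 0.12). With the Gapdh ratio in the model it read -0.58 and was not called (adjusted p = 0.131). Snrpn, the neuron-enriched Sm protein encoded at an imprinted locus, was called only at P80 (0.39 ± 0.13, adjusted p = 0.0104).

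In the SF3b complex, which holds the branch point of the intron, the subunits also parted. Sf3b5, a small subunit, was higher in isolation-reared rats at P30 and P60. At P30 socially reared samples ranged from 6.51 over 6.68 to 6.85, and the 5 isolation-reared samples read 6.97, 7.21, 7.01, 6.86 and 7.02, just above them (0.33 ± 0.083, adjusted p = 0.00339). At P60 socially reared samples ranged from 6 over 6.19 to 6.44 and isolation-reared samples from 6.8 over 6.94 to 7.24. The groups lay well apart, at 0.76 ± 0.079 (1.7-fold, adjusted p = 3.68e-11), and the difference was 1.19 with the Gapdh ratio in the model. Sf3b1, the subunit that contacts the branch-point helix, was lower at P60 (-0.3 ± 0.048), with isolation-reared samples from 8.43 to 8.56 and socially reared samples from 8.66 to 8.89. Sf3b2 and Sf3b3 were higher at P60 (0.27 ± 0.042 and 0.36 ± 0.067) and lower at P80 (-0.26 ± 0.042 and -0.21 ± 0.067). Sf3b6, which lies next to the branch-point adenosine, was the reverse, at -0.24 ± 0.047 and 0.39 ± 0.047, and Sf3b4 was called only at P80 (0.35 ± 0.062). With the Gapdh ratio in the model, the P60 call of Sf3b2 was lost (0.18, adjusted p = 0.192). Both calls of Sf3b3 were lost as well (0.39 and -0.19, adjusted p = 0.0647 and 0.121). Those of Sf3b1, Sf3b4 and Sf3b6 at these ages were kept. At P40 the differences of the 8 SF3a and SF3b genes ran from -0.07 to 0.11, and the smallest adjusted p was 0.209.

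Of the 11 Prpf genes, 6 were called at P60 (3 higher, 3 lower) and 7 at P80 (2 higher, 5 lower). These shares were near or above the 53.1% and 47.7% of all probe sets. Prpf6, which bridges the snRNPs of the tri-snRNP, was higher at P60 (0.29 ± 0.061) and lower at P80 (-0.44 ± 0.061), and the groups did not overlap at either age: 7.05 to 7.23 in socially reared and 7.36 to 7.48 in isolation-reared rats at P60, then 7.43 to 7.7 and 6.94 to 7.19 at P80. The P60 difference was 0.46 with the Gapdh ratio. Prpf18, a factor of the second catalytic step, was lower at P40 and higher at P80. At P40 socially reared samples ranged from 7.47 over 7.65 to 7.87, and the 5 isolation-reared samples read 7.51, 7.44, 7.19, 7.26 and 7.27, with 1 of them inside the socially reared range (-0.32 ± 0.078). At P80 isolation-reared samples (7.65 over 7.72 to 7.9) were all above socially reared samples (7.28 over 7.38 to 7.59), by 0.33 ± 0.075. Prpf39, which in yeast is a component of the snRNP that binds the 5' splice site, was the member with the largest lower value in the mean over the 4 ages (-0.29 ± 0.045, adjusted p = 1.92e-06). It read -0.25 at P30, -0.4 at P60 and -0.39 at P80, all called, and was not called at P40. The P30 call was lost without any of socially reared samples 1, 2, 4 or 5 or isolation-reared samples 1, 2 or 6 (differences from -0.33 to -0.2). Prpf39 read -0.4 at P30, -0.85 at P60 and -0.6 at P80 with the Gapdh ratio, all called. Prpf8, the protein at the catalytic core, and Prpf3 and Prpf4, of the tri-snRNP, were called at no age.

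In the test of an interaction of rearing with age, 38 of the 54 members were called (70.4%), beside 72.2% of all probe sets. The 4 smallest p belonged to Snrpe, Prpf19, Hnrnpr and Hnrnpul1 (adjusted p = 1.56e-15, 1.09e-13, 2.50e-11 and 2.61e-11). Prpf19 and Hnrnpul1 were higher in isolation-reared rats at P60 and lower at P80, while Snrpe and Hnrnpr were lower at P60 and higher at P80.

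Their promoters are shown because these members had the smallest interaction p. Each sequence is the 250 bases before the annotated start of the gene, read 5' to 3' on the gene's strand, from RefSeq on the build GRCr8: Hnrnpr at chr5:153826269-153826518 (plus strand), Hnrnpul1 at chr1:90390371-90390620 (minus strand), Prpf19 at chr1:216966257-216966506 (plus strand) and Snrpe at chr13:47609252-47609501 (minus strand). Capitals mark matches, on either strand, to GGGCGG (the GC box), CCAAT (the CCAAT box) and CCGGAAG (a motif of the ETS factors).
Hnrnpr: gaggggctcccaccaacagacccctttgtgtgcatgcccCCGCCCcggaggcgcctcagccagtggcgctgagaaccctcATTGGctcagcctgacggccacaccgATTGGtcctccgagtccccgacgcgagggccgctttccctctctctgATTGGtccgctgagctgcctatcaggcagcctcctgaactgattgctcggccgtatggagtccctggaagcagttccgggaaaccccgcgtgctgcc
Hnrnpul1: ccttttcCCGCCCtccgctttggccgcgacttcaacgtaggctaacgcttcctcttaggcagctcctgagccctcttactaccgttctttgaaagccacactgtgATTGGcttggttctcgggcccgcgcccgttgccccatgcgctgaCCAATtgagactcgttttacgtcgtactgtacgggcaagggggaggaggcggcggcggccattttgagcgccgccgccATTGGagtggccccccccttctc
Prpf19: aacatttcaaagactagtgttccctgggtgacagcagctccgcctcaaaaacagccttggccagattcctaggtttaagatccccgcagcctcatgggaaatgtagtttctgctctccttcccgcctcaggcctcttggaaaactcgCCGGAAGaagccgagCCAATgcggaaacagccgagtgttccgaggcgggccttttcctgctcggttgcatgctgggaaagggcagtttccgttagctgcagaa
Snrpe: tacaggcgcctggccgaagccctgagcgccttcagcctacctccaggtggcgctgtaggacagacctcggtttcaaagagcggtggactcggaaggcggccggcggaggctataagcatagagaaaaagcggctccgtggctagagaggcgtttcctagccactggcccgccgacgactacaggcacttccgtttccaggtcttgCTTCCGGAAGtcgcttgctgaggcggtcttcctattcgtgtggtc
Hnrnpr and Hnrnpul1, of opposite direction, both held 3 CCAAT matches and 1 GC box match. Prpf19 held 1 ETS match and 1 CCAAT match, and Snrpe held 2 ETS matches, 1 on each strand, which overlap.

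Over all members, 54 of the 57 genes had a promoter in the RefSeq table of 27457, of the same length. The GC box was found in 55.6% of the members' promoters and 32.4% of all, the ETS motif in 27.8% and 7.74%, and CCAAT in 50% and 34.3%. CACGTG (the E-box) was in 11.1% and 5.79% and TATAAA (the TATA box) in 9.26% and 13.1%. The members' promoters were also richer in G and C, with a median of 58.2% against 52% and 19 CG dinucleotides against 6. The motif shares and the base composition cannot be told apart here, and a match is not evidence of a bound factor.

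Snrpe, a small Sm protein, was the most precisely measured of these. At P30 socially reared samples ranged from 9.08 over 9.26 to 9.35, and the 5 isolation-reared samples read 9.5, 9.54, 9.56, 9.63 and 9.59, all higher (0.32 ± 0.039, adjusted p = 4.49e-08). At P60 all isolation-reared samples (9.32 over 9.48 to 9.53) were below all socially reared samples (9.69 over 9.75 to 9.81), by -0.28 ± 0.038 (adjusted p = 2.16e-08). At P80 all were above (9.82 over 9.9 to 9.98 against 9.45 over 9.46 to 9.52), by 0.43 ± 0.038 (adjusted p = 3.84e-13). In socially reared rats the mean was 9.24 at P30, 9.48 at P40, 9.75 at P60 and 9.47 at P80. In isolation-reared rats it was 9.56, 9.52 and 9.46 at the first 3 ages and 9.9 at P80.

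Prpf19, the ubiquitin ligase at the centre of the complex that joins the spliceosome at its activation, was opposite to Snrpe at P60 and P80. At P60 isolation-reared samples ranged from 8.6 over 8.65 to 8.67 and socially reared samples from 8.17 over 8.27 to 8.32, a difference of 0.38 ± 0.049 (adjusted p = 9.74e-09). At P80 isolation-reared samples ranged from 8.34 over 8.45 to 8.5 and socially reared samples from 8.86 over 8.93 to 8.97, a difference of -0.49 ± 0.049 (1.4-fold lower, adjusted p = 2.35e-11). The groups were apart at both ages. At P30 and P40 they overlapped and the differences (0.07 and 0.08) were not called. Isolation-reared means stayed between 8.61 and 8.64 from P30 to P60, while the socially reared mean went from 8.53 at P40 to 8.26 at P60 and 8.92 at P80.

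Hnrnpr, an RNA-binding protein that in mouse motor neurons associates with transcripts transported along axons, had the signs of Snrpe at P60 and P80. At P60 isolation-reared samples (8.74 over 8.83 to 8.93) were all below socially reared samples (9.01 over 9.11 to 9.18), by -0.26 ± 0.05 (adjusted p = 1.58e-05). At P80 they were all above (8.91 over 9.07 to 9.18 against 8.56 over 8.62 to 8.69), by 0.46 ± 0.05 (1.37-fold, adjusted p = 1.63e-10). Both were also called with the Gapdh ratio, at -0.6 and 0.3. At P40 the 5 isolation-reared samples read 9.01, 9.02, 9.09, 9.11 and 8.91 against socially reared samples from 8.62 over 8.89 to 8.93, overlapping, and the difference of 0.17 ± 0.052 (adjusted p = 0.00943) was 0.13 and not called without socially reared sample 2, the lowest of its group. The P40 difference was 0.3 with the Gapdh ratio.

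**Figure D2:**
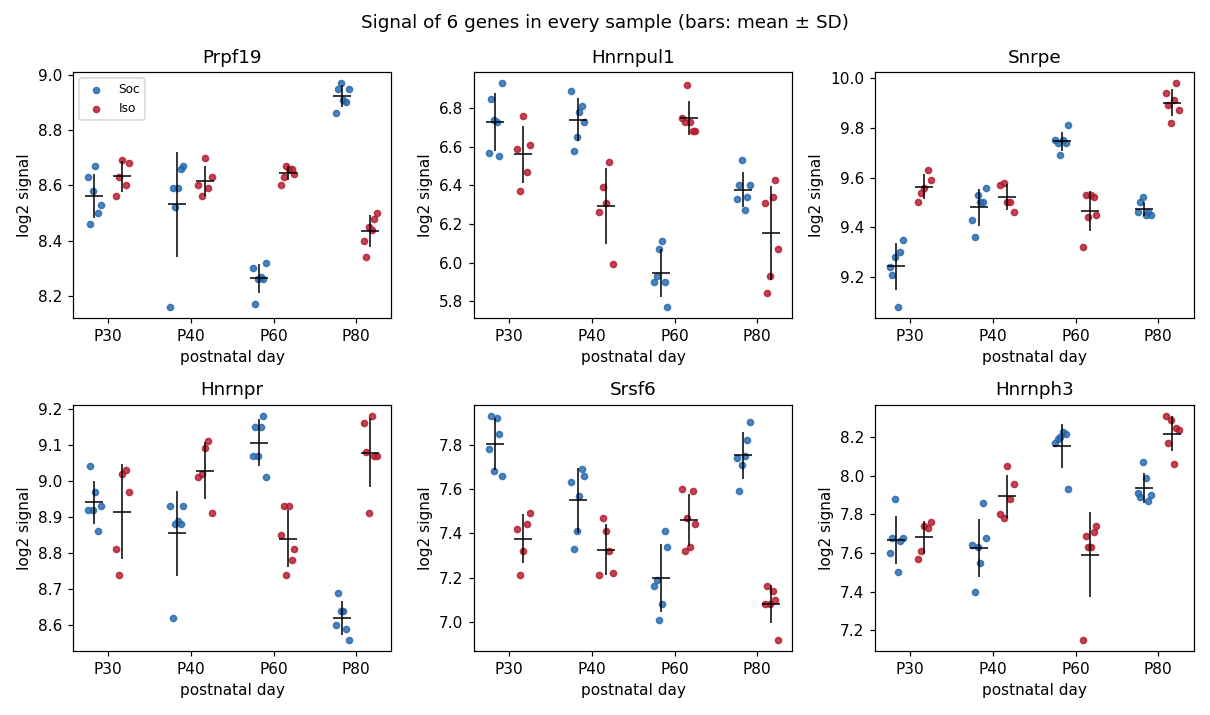
Log2 signal of 6 members in every sample by postnatal day, blue for socially reared (Soc) and red for isolation-reared (Iso) rats, with bars for the mean ± SD; each panel has its own vertical scale. Prpf19, Hnrnpul1 and Srsf6 are higher in isolation-reared rats at P60 and lower at P80, and Snrpe, Hnrnpr and Hnrnph3 are lower at P60 and higher at P80. Each gene is shown by its brightest probe set, and another probe set of Srsf6 was called in the opposite direction at P60.

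The turn between P60 and P80 was common among the members and on the array. Of the 24 members called at both ages, 19 had opposite signs (79.2%), beside 82.9% of all probe sets called at both. The 12 that were higher at P60 and lower at P80 were Hnrnpab, Hnrnpf, Hnrnpul1, Prpf19, Prpf40b, Prpf6, Sf3b2, Sf3b3, Snrpb, Snrpd3, Srsf6 and Srsf9. The 7 that were lower and then higher were Hnrnpa3, Hnrnpdl, Hnrnph3, Hnrnpr, Sf3b6, Snrpe and Srsf4. The 5 that kept 1 direction, by their brightest probe sets, were Hnrnpa1 and Hnrnpc (higher) and Prpf39, Prpf4b and Srsf2 (lower). Other probe sets of Hnrnpa1 and Srsf2, and of Srsf6 and Hnrnpa3 among the 19, were called in the opposite direction at P60, as given below. Of the 19, 5 kept both calls with the Gapdh ratio in the model: Hnrnpr, Prpf19, Prpf6, Sf3b6 and Snrpe. Of the other 14, Hnrnpdl, Hnrnph3 and Snrpb kept only the P60 call, 8 kept only the P80 call, and Prpf40b, Sf3b3 and Srsf9 kept neither. Of the 10 members called at both P40 and P60, all 10 had opposite signs, beside 91.4% of all probe sets. No member was called in 1 direction at all 4 ages, which held for 0.173% of all probe sets. Within each of these counts of opposite signs, the ages compared share no samples. Both counts use the same P60 samples, however, and are not independent of each other. The sign counts were made after the data had been seen.

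**Figure D3:**
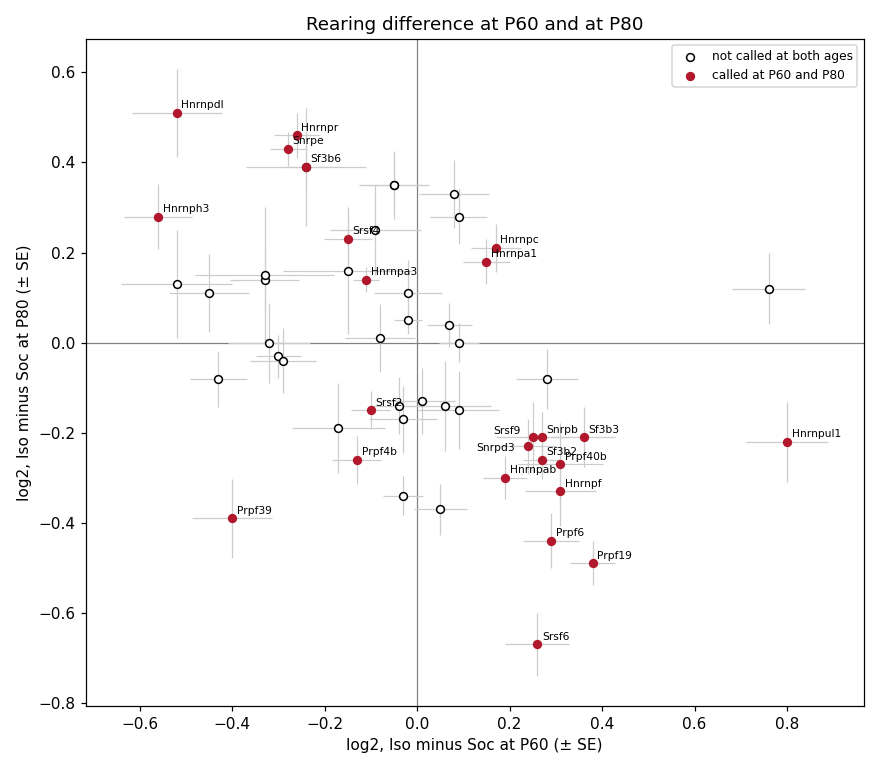
Log2 difference at P60 (horizontal) and at P80 (vertical), isolation-reared minus socially reared, with SE, for the 54 members; red points, named, are the 24 called at both ages. Of these, 12 lie at lower right, 7 at upper left and 5 in the quadrants of equal sign.

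Because each of these differences is between 2 groups, the groups were also set against the other 6. At P60, the socially reared mean lay farther than the isolation-reared mean from the mean of the other 6 groups in 26 of the 33 called members, with a median distance of 0.21 against 0.09. Over all probe sets called at P60 the share was 66.2%. At P80 the socially reared mean was the farther one in 14 of 33 members, against 44.8% of the called probe sets. Over the 8 groups the members' means spanned a median of 0.38 log2 units (0.11 to 0.81), beside a median SD within groups of 0.106. The socially reared group at P60 held the highest mean of 12 members and the lowest of 12 others. This comparison was chosen after the data had been seen and has no test of its own.

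**Figure D4:**
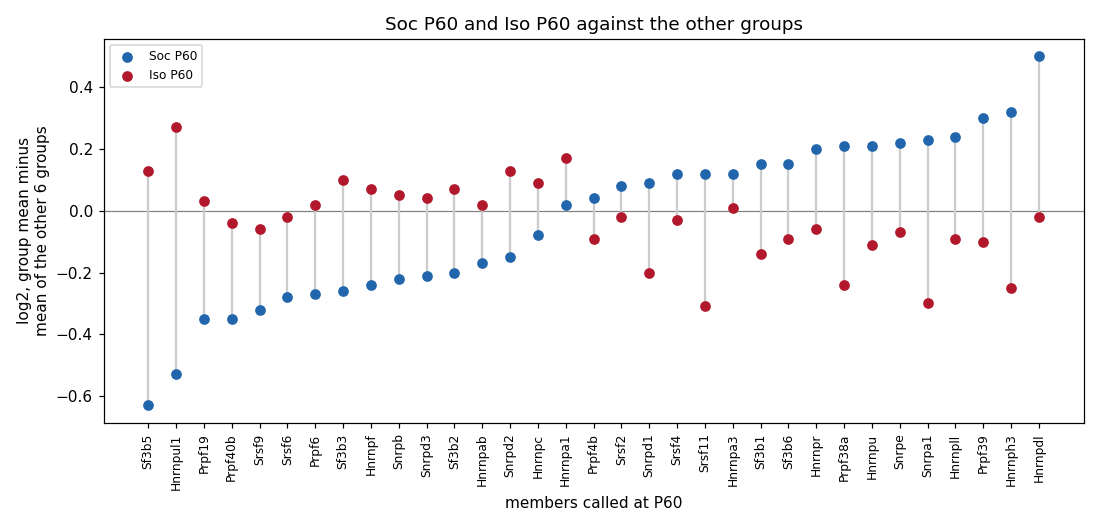
Distance of the socially reared (blue) and isolation-reared (red) group mean at P60 from the mean of the other 6 groups, in log2 units, for the 33 members called at P60; a grey line joins the groups. In 26 of the 33 the blue point lies farther from 0 than the red.

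Some genes were read by several probe sets that did not move alike. Of the 13 members with more than 1 probe set above the filter, 6 had probe sets called in opposite directions at P60 (46.2%), beside 23.4% of the 1403 genes on the array with several. At P40 and at P80 this held for Hnrnpa3 alone (7.69% of the 13, beside 7.48% and 10.8% on the array). These shares were not matched for the number of probe sets per gene, which was 5 for Hnrnpa3 and 4 for Hnrnpa2b1. Hnrnpa2b1, an abundant hnRNP that also sorts mRNAs into dendrites, was the widest case. Its brightest probe set was not called at P60 (-0.04 ± 0.063). A second probe set of the gene ranged from 5.57 over 5.79 to 5.89 in socially reared and from 6.73 over 6.88 to 7.08 in isolation-reared rats, with no overlap (1.12 ± 0.072, adjusted p = 2.08e-17). The socially reared values of this probe set lay around the filter value of 5.72. Another read -0.43 ± 0.087, also called, and the last -0.19 ± 0.098, not called. The probe set of Srsf2 chosen by brightness read -0.1 ± 0.042 at P60, and its other probe set ranged from 6.26 over 6.4 to 6.78 in socially reared and from 7.01 over 7.17 to 7.3 in isolation-reared rats with no overlap (0.71 ± 0.087, adjusted p = 2.59e-09).

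Hnrnpa1, a well-studied repressor of exon inclusion, had 2 probe sets of nearly the same mean signal (7.76). The chosen one was higher at P60 (0.15 ± 0.05, adjusted p = 0.00827), while the other ranged from 8.01 over 8.05 to 8.16 in socially reared and from 7.23 over 7.43 to 7.56 in isolation-reared rats (-0.63 ± 0.063, adjusted p = 2.01e-11). A dimmer probe set of the gene (mean 7.25) was lower too (-0.39 ± 0.067, adjusted p = 3.50e-06). The direction of Hnrnpa1 at P60 therefore rests on the probe set. The same held for Hnrnpu (-0.32 and 0.27), Srsf6 (0.26 and -0.24) and Hnrnpa3 (-0.11 and 0.32). At P80, where the brightest probe set of Srsf6 read -0.67, another read -0.48 ± 0.12 (called) and the third 0.06 (not called). Which transcript parts the probe sets read was not analysed here.

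**Figure D5:**
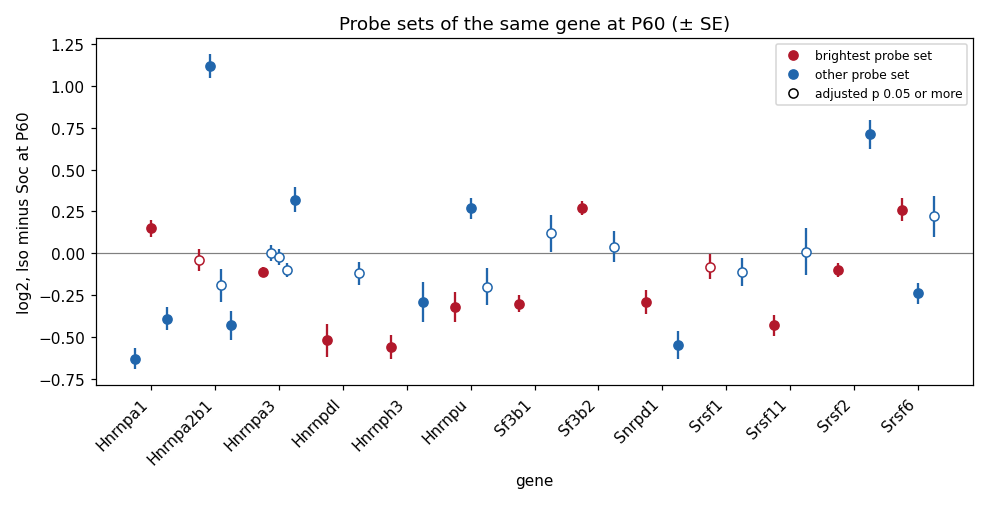
Log2 difference at P60 (isolation-reared minus socially reared, ± SE) of each probe set above the filter, for the 13 members with more than 1; red marks the brightest probe set of a gene and open points an adjusted p of 0.05 or more. In 6 genes filled points lie on both sides of 0, from 1.12 to -0.43 in Hnrnpa2b1.

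Averaged over the 4 ages, 21 of the 54 members were called (38.9%), 9 higher and 12 lower, beside 28.6% of all probe sets. Sf3b5 was the highest (0.31 ± 0.04, adjusted p = 9.58e-08), followed by Snrpf (0.17 ± 0.039). Prpf39 was the lowest, followed by Srsf6 (-0.27 ± 0.036, adjusted p = 1.32e-07). With the Gapdh ratio in the model 11 were called, and 9 of the 21 calls were kept, those of Prpf39 (-0.45), Sf3b5 (0.46), Snrpe and Srsf6 among them. Hnrnpr turned from 0.09 to -0.03, not called.

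Between P30 and P80, 22 of the 54 members differed in socially reared rats (40.7%), 14 higher and 8 lower at P80, beside 49.7% of all probe sets. The largest were Hnrnpd (0.47 ± 0.057, adjusted p = 2.50e-09), Prpf39 (0.4 ± 0.087) and Hnrnpu (0.37 ± 0.089) among those higher. Srsf10 (-0.37 ± 0.15), Hnrnpul1 (-0.35 ± 0.089), Hnrnpf and Hnrnpr (both -0.32) were the largest among those lower. The Srsf10 call was lost without any of socially reared samples 2 or 6 at P80 or 1, 3 or 4 at P30 (-0.43 to -0.3). The calls of Srsf10 (0.23), Hnrnpul1 (-0.19) and Hnrnpr (-0.14) were lost with the Gapdh ratio, and Prpf39 read 0.65 and Hnrnpu 0.62. In isolation-reared rats 27 members differed (50%), 17 higher and 10 lower, beside 48.2% of all probe sets. Hnrnpdl (0.63 ± 0.1) and Hnrnph3 (0.54 ± 0.076) were the largest among those higher, and Hnrnpf (-0.51 ± 0.08) and Hnrnpul1 (-0.41 ± 0.093) among those lower. Snrpa read 0.4 ± 0.14 there, and 0.2 without isolation-reared sample 2 at P30, when it was no longer called. These comparisons share their samples with the comparisons of rearing at P30 and at P80.

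The P80 minus P30 difference itself differed between the rearings in 20 members (37%), beside 29.9% of all probe sets. Prpf19 was higher with age in socially reared (0.36 ± 0.049) and lower in isolation-reared rats (-0.19 ± 0.051), a difference between rearings of -0.55 ± 0.071 (adjusted p = 3.83e-08). Hnrnpr was the reverse, at -0.32 ± 0.05 and 0.16 ± 0.052, with a difference of 0.48 ± 0.072 (adjusted p = 8.33e-07), or 0.43 with the Gapdh ratio. Hnrnpdl had the largest difference between rearings (0.68 ± 0.14, adjusted p = 2.25e-04).

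Other splicing genes were read from lists, without the Gapdh ratio in the model. Their counts stand beside 53.1% of all probe sets called at P60 (23.7% higher, 29.3% lower) and 47.7% at P80 (23.5% higher, 24.2% lower). Of 38 further core spliceosome genes above the filter, 22 were called at P60 (13 higher, 9 lower) and 19 at P80 (8 higher, 11 lower), near those shares and not a result about these genes. The helicase Ddx39b was 0.51 ± 0.036 higher at P60 and -0.29 ± 0.036 lower at P80. Snrnp200, the helicase that unwinds the tri-snRNP, was lower at P60 (-0.36 ± 0.047). Of 27 SR-related factors and SR protein kinases, 20 were called at P60, 4 higher and 16 lower, with a median of -0.182 beside -0.023 over all probe sets. Srrm2 (-0.47 ± 0.037), Luc7l3 (-0.44 ± 0.043) and the kinase Clk1 (-0.39 ± 0.04) had the smallest p. Scaf1 had the largest difference of this list, 1.04 ± 0.14 at P60, and read -0.74 ± 0.14 at P80. At P80, 16 were called, 4 higher and 12 lower, and Clk1 (-0.43 ± 0.04) and Srrm2 (-0.29 ± 0.037) were lower again.

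Of 24 neuronal and tissue regulators of splicing, 20 were called at P60, 4 higher and 16 lower (median -0.228), and 15 at P80, 11 higher and 4 lower (median 0.024). Rbfox1, which sets many neuronal exons, read -0.33 ± 0.041 at P60 and 0.28 ± 0.041 at P80. Mbnl2 (-0.36 ± 0.032), Khdrbs1 (-0.46 ± 0.046) and Mbnl1 (-0.35 ± 0.044) were also lower at P60, and Rbfox3, the neuronal nuclear antigen, was higher at P80 (0.53 ± 0.039). The 4 called higher at P60 were Raly (0.51 ± 0.12), Ptbp1 (0.5 ± 0.086), Elavl4 (0.31 ± 0.044) and Pcbp2 (0.1 ± 0.037). Of 4 minor spliceosome genes 2 were called at P60, Rnpc3 (-0.88 ± 0.11) and Zcrb1 (-0.38 ± 0.11), both lower. At P80 these read -0.1 ± 0.11 and -0.22 ± 0.11, not called. Of 8 FET and paraspeckle genes 4 were called at P60 (2 higher, 2 lower), of 8 exon junction and decay genes 4 (3 higher, 1 lower), and of 11 genes of snRNP assembly 3 (1 higher, 2 lower). These shares were at or below the 53.1% of all probe sets.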

How the data were processed

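The deposited table holds log2 signals of 47 arrays. Per the submitters' processing notes, MAS5 made them. The version and the scaling target are not given in the sources used here. Trimmed mean signals (2% trimmed) of 156.59 to 161.44 show that the arrays had been scaled before deposit, and nothing further was normalized. A second deposited file holds counts of probe sets that passed the authors' filters and gave no value here. Two-sided moderated tests were run with limma (3.58.1, R 4.3.3) on 8 group means over 46 samples, with a variance trend and 38 residual degrees of freedom, for the 12149 probe sets at or above the 40th percentile of mean signal, and adjusted by the Benjamini-Hochberg method at 0.05. Arrays of a group nearer than 0.6 of its median distance were averaged. The number of arrays limits the precision.

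Symbols came from the platform annotation. All 87 member probe sets matched a GRCr8 gene table by gene number and no symbol changed, and 8 probe sets with several symbols were left out. Members, gene lists and the rule for named genes (the 10 largest rises and 10 largest falls among called members per comparison of rearing or of age, 5 and 5 for the mean, the 8 smallest interaction p, and up to 4 genes by p of each other list) were chosen with earlier results of these data known. So were the limit for near arrays and the sign and group-distance counts. Members and list genes outside this rule (such as Srsf4, Snrpd3, Scaf1 and members called at no age) were named after their values were seen. Array numbers in the labels did not pair the samples: the deviations of samples with the same number correlated between -0.09 and 0.09. The fit was tested on simulated data. Alternatives were quantile normalization, other filters, all 47 arrays, a replicate block, the Gapdh ratio, no variance trend, other probe sets, samples left out in turn and, chosen after seeing the data, the hexokinase ratio.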

Additional observations from a re-analysis of the deposited data

Results flagged for a closer look

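Arrays were compared within each group of 5 or 6 for the 11 genes described sample by sample, 88 groups in all, and 10 held a sample far from the rest. Chance alone flags about 1 in 20 groups. Srsf10 read 5.97 in isolation-reared sample 1 at P60 (others 6.86 to 7.30), where Hnrnph3 also read low, at 7.15 (others 7.63 to 7.74). Hnrnpul1 read 6.92 in isolation-reared sample 3 at P60 (others 6.68 to 6.75), and Srsf6 read 6.92 in isolation-reared sample 6 at P80 (others 7.08 to 7.16). In socially reared sample 6 at P60, Hnrnph3 read 7.93 (others 8.17 to 8.23) and Hnrnpdl 9.26 (others 9.64 to 9.78). In socially reared rats at P40, sample 2 read 9.42 for Hnrnpdl (others 9.01 to 9.15) and 8.62 for Hnrnpr (others 8.88 to 8.93), sample 3 read 6.70 for Sf3b5 (others 6.97 to 7.11), and sample 1 read 8.16 for Prpf19 (others 8.52 to 8.67).

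The rearing difference itself differed between ages for 10 of the 11, by limma's interaction test. The adjusted p was 1.56e-15 for Snrpe, 1.09e-13 for Prpf19, 2.50e-11 for Hnrnpr, 2.61e-11 for Hnrnpul1 and 2.41e-10 for Srsf6. It was 1.06e-09 for Hnrnph3, 1.53e-07 for Hnrnpdl, 3.78e-07 for Hnrnpf, 5.76e-07 for Sf3b5 and 1.68e-05 for Prpf18.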

How the results depend on the processing

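Counts of called members stayed within 1.5 times the reported ones under all alternatives run but 3. With the Gapdh ratio as a covariate, 19 members were called at P60 and 11 in the mean over ages, and all probe sets of the members gave 35 calls of 75 for P80 minus P30 in socially reared rats. The Gapdh ratio differed between the same groups, and the cause of the lost calls was not tested. Leaving out single samples gave 7 to 11 calls at P30, 11 to 16 at P40, 31 to 34 at P60, 30 to 34 at P80, 18 to 21 in the mean, 37 to 40 for the interaction, 20 to 23 and 22 to 29 for P80 minus P30 in socially and isolation-reared rats, and 15 to 21 for their difference. With the replicate block the counts were 10, 14, 34, 33, 20, 37, 22, 27 and 18 in that order. With quantile normalization no called member of the 4 comparisons of rearing changed sign.

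Signs turned mainly between probe sets of a gene. At P30 others read 0.07 and 0.13 for Srsf6, 0.05 for Srsf2, and 0.06 and 0.01 for Hnrnpa3. At P40 they read -0.02 for Hnrnph3, -0.31 for Srsf11, 0.07 and 0.04 for Srsf6, and 0.17 and 0.13 for Hnrnpa1. At P60 they read 0.01 for Srsf11, 0.27 for Hnrnpu and 0.12 for Sf3b1. At P80 they read -0.11 for Hnrnpdl and 0.06 for Srsf6. For P80 minus P30 in socially reared rats they read -0.09 for Hnrnpu, -0.05 for Hnrnph3, -0.75 for Hnrnpa2b1, and 0.12 and 0.01 for Hnrnpa3. In isolation-reared rats they read -0.08 and -0.20 for Hnrnpu, 0.18 for Srsf6 and 0.01 for Sf3b2. With the Gapdh ratio 3 called members turned sign, none of them then called: Srsf10 read 0.23 for P80 minus P30 in socially reared rats, Srsf2 0.07 at P60 and Hnrnpr -0.03 in the mean over ages. The balance at P60 moved from 16 higher and 17 lower to 5 and 14.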
